A study of Mus musculus with 2 samples.

Results

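Accessible regions whose centre lies in protein-coding sequence, away from transcription start sites (TSSs), were described in mouse thymus. Peaks of DNase I sequencing that overlapped between both samples were merged to 51709 shared regions, of which 29398 lay over 1000 bp from every TSS of the GENCODE M21 annotation. The centre of 795 of these distal regions lay in a coding exon of a protein-coding gene, which is 2.70% of distal regions, and these 795 are called coding-exon regions below. The other distal regions were classed by their centre as UTR exon (746), noncoding exon (602), intron (14563) or intergenic (12692).

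The data came from whole thymus of male B6CASTF1/J mice aged 2 months, the F1 offspring of C57BL/6J and CAST/EiJ, with no treatment and no other genotype. The labels give 1 group of 2 biological replicates, name a separately numbered male for each, and give both the same donor identifier. The spread between them may therefore be partly technical, and with 1 group no test between samples was possible. The strict peak lists held 63832 peaks in replicate 1 and 67929 in replicate 2. Of 15 thymocyte marker genes, 14 had an accessible promoter, against 58.9% of all protein-coding genes. The lists of 6 for B cells, myeloid cells, thymic epithelium, hepatocytes and muscle had 1 or 2 each. The neuron list had 4 of 6, which is not below the share of all genes. In whole tissue, accessibility in few cells and weak accessibility in many cells cannot be told apart.

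DNase I cuts DNA where nucleosomes are absent or loosened, and a bound protein can shield a short stretch inside such a region, which is read as a footprint. Most known regulatory elements lie in promoters, introns and intergenic sequence, but coding exons can also hold binding sites, so that the same bases serve the protein code and a DNA-binding protein. CTCF, a zinc finger protein that sets loop boundaries in chromatin, and NRF1, an activator of GC-rich promoters, both recognise long consensus sequences that can be found in an exon with little ambiguity.

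Sites that match these consensus sequences are shown first, from the regions with the highest scores. They are not typical of the set, as 704 of the 795 coding-exon regions held neither match in their central 150 bp. CTCF was matched in 8.81% of coding-exon regions, less often than in all distal regions (13.3%). Each line gives coding bases only, on the strand of the gene, read from GRCm38.p6 (mm10), with the consensus match in capitals and up to 30 coding bases on either side. The 5 highest regions with a match to the NRF1 consensus, which is close to its own reverse complement, are these.
Angptl6, coding exon 1 of 5, chr9:20878385-20878454 (minus strand): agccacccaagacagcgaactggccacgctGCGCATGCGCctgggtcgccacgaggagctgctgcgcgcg
Lgals7, coding exon 4 of 4, chr7:28866103-28866172 (plus strand): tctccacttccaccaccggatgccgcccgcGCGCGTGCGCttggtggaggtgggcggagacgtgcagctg
Gdf15, coding exon 2 of 2, chr8:70629848-70629917 (minus strand): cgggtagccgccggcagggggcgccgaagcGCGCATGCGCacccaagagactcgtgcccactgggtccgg
Ccdc194, coding exon 3 of 4, chr8:71521866-71521935 (minus strand): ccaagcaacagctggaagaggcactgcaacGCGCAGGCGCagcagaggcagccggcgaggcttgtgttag
Sptbn4, coding exon 32 of 35, chr7:27361569-27361638 (minus strand): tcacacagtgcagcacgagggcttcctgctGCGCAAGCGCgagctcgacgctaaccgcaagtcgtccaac

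CTCF sites were found with its core consensus, and 5 of the 6 highest regions with such a site are shown in the same way. In 3 of the 5 the CTCF core runs on the strand opposite to the gene, so that its reverse complement is printed.
Zscan10, coding exon 5 of 5, chr17:23610683-23610754 (plus strand): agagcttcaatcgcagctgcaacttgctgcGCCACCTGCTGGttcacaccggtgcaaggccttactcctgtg
Pgls, coding exon 5 of 5, chr8:71596087-71596158 (plus strand): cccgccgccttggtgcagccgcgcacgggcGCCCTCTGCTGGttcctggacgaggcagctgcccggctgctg
Synpo2l, coding exon 4 of 4, chr14:20661132-20661203 (minus strand): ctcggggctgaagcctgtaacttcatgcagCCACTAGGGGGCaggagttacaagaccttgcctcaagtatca
Rasip1, coding exon 2 of 11, chr7:45628929-45629000 (plus strand): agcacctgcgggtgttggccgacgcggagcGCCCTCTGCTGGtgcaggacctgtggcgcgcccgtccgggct
Trmu, coding exon 9 of 11, chr15:85896458-85896504 (plus strand): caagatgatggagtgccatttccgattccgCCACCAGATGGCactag

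Coding exons held more accessible regions for their length than any other distal class. Distal coding sequence came to 25.002 Mb, 1.01% of all distal sequence, and held 31.8 regions per Mb. The densities were 24.3 per Mb in UTR exons, 21.1 in noncoding exons, 14.4 in introns and 9.14 in intergenic sequence. The coding density was thus 2.22 times that of introns and 3.48 times that of intergenic sequence. These lengths include repeats and sequence that is not unique, and densities over unique bases alone were not computed.

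The density of coding-exon regions was higher nearer to TSSs, and exceeded that of introns at every distance. Between 1000 and 2000 bp from a TSS, coding sequence held 50.1 regions per Mb and introns held 27.3, a ratio of 1.83. The ratio was 1.69 from 2000 to 5000 bp, 1.89 from 5000 to 10000 bp and 1.80 from 10000 to 50000 bp. Beyond 50000 bp it was 2.28, from 11 coding-exon regions. Of the 795 regions, 199 lay within 2000 bp of a TSS and 179 over 10000 bp away.

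**Figure D1:**
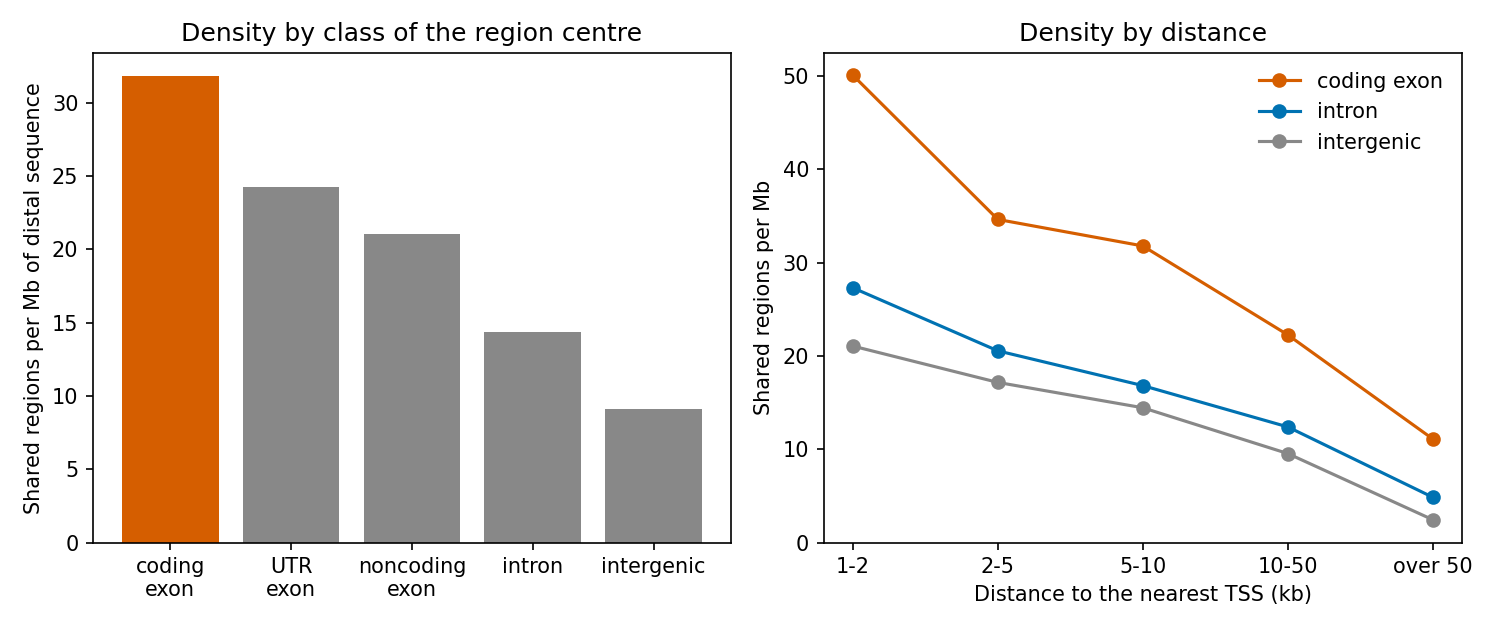
Shared regions per Mb of sequence over 1000 bp from every TSS, by class of the region centre (left) and, for coding exons, introns and intergenic sequence, by distance to the nearest TSS (right). Each bar or point is a count from the regions shared by both replicates divided by the length of that sequence. Coding exons (31.8 per Mb) stand above the other 4 classes, and above introns and intergenic sequence at each of the 5 distances.

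Last coding exons held more of the regions than their share of coding sequence. Of the 795 regions, 231 (29.1%, 95% Wilson interval 26.0 to 32.3%) lay in a last coding exon, against 18.5% of distal coding bases. Internal exons held 475 (59.7%, 56.3 to 63.1%), against 72.4% of the bases. First coding exons held 41 (5.16%) and genes with a single coding exon held 48 (6.04%), against 3.97% and 5.12% of the bases. Per Mb this came to 50.5 regions in last, 41.8 in first, 38.01 in single and 26.6 in internal coding exons.

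The density also increased along the coding sequence. When the coding sequence was divided into 5 equal stretches from start to end, it was 25.3, 26.8, 28.5, 32.6 and 44.4 regions per Mb. The step was largest at the last stretch, which held 250 regions. By exon length, the density was highest in coding exons of 300 to 1000 bp, at 44.5 per Mb. It was 23.9 per Mb in those under 100 bp and 27.2 per Mb in those of 1000 bp or more.

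**Figure D2:**
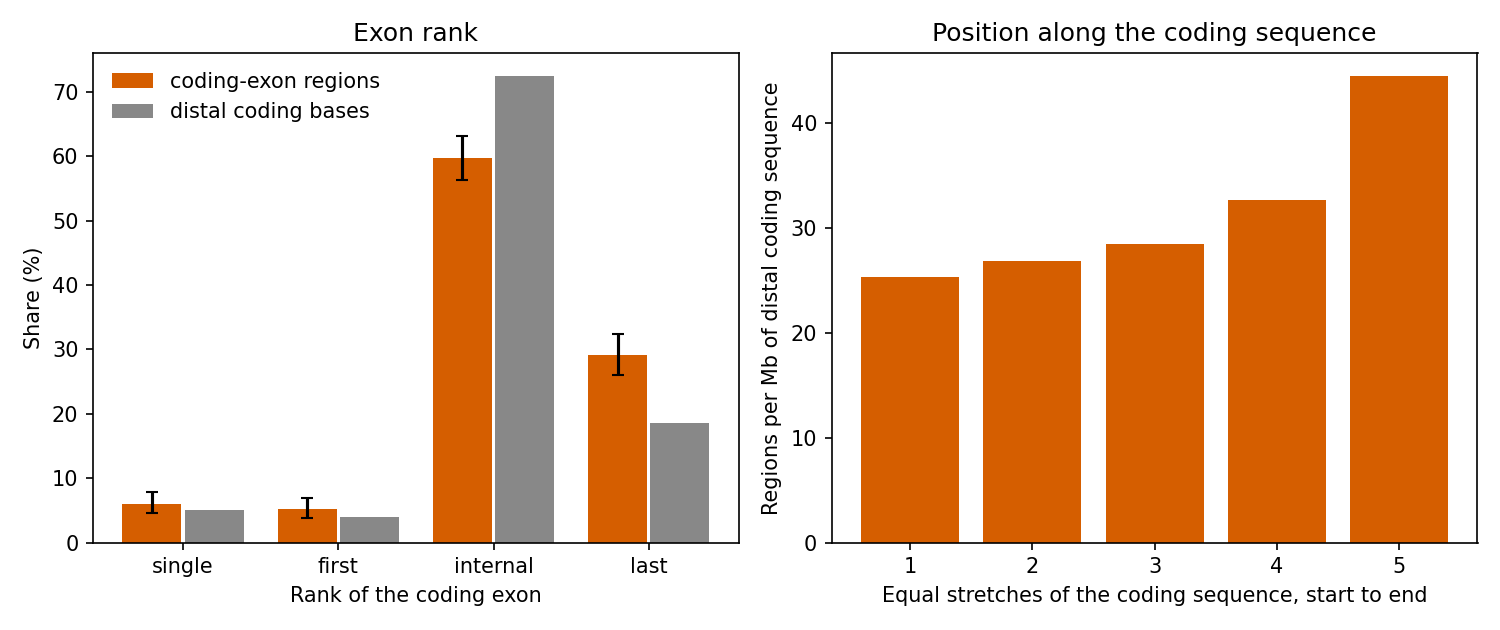
Share of coding-exon regions by rank of the coding exon, beside the share of distal coding bases of that rank (left, bars on the regions are 95% Wilson intervals), and regions per Mb in 5 equal stretches of the coding sequence (right). Last exons hold 29.1% of the regions and 18.5% of the bases, and the final stretch has the highest density, 44.4 per Mb.

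Most regions crossed an end of the exon that held their centre, in 584 of 795 cases. Their median width was 220 bp and the median length of the exon was 203 bp. The whole region lay in the exon in 211 of 795 cases (26.5%), and 262 regions crossed both exon ends. In the median region 73.5% of the bases were coding, and 117 regions were under 50% coding. A coding centre therefore does not place all of a region in coding sequence.

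Coding-exon regions were rich in GC and CpG, as coding sequence is in general. Their median GC content was 58.2% and their median CpG number 3.50 per 100 bp, against 52.0% and 1.5 in distal intronic regions. Repeat-masked bases made up 4.74% of coding-exon regions and 13.8% of intronic ones. In 32 regions, under 90% of the 31-base words occurred once in the genome, so that reads from several copies could add up there.

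Peak scores are the submitters' signal values, and the highest score in a region was taken for each replicate. In replicate 1 the median score was 1.51 in coding-exon regions, 1.44 in intronic, 1.47 in intergenic and 1.63 in UTR regions. In replicate 2 it was 1.37 in coding-exon regions, 1.36 in intronic, 1.46 in intergenic and 1.66 in UTR regions. The medians of coding-exon and intronic regions differed by less than the replicates did, and promoter regions, at 3.64 and 2.81, stood above all distal classes.

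The spread of scores within coding exons was wide at both ends. Among all distal regions, 26.8% of coding-exon regions were in the highest score quartile and 26.8% in the lowest. The mean score over replicates ranged from 0.274 in Psd, an exchange factor for an ARF GTPase, to 16.7 in Angptl6, which was 11.6 times the median. The other low ones were in Ubqln2, a proteasome shuttle factor, with 0.296 and 0.383 in replicates 1 and 2, and in Dip2c, with 0.378 and 0.371.

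The replicates ranked the coding-exon regions alike, and replicate 2 scored lower at most of them. Across the 795 regions, which are not independent, log2 scores of the replicates had a Pearson correlation of 0.914. On the log2 scale replicate 2 minus replicate 1 had a median of -0.18 (SD 0.46), against -0.06 (SD 0.49) over all distal regions. Of the 795 regions, 18 (2.26%) lay more than 2-fold from the median of all distal regions, against 3.70% of distal regions. After the median of all distal regions was subtracted, the largest differences were in Gm11168, with 1.49 in replicate 1 and 4.15 in replicate 2 and no unique 31-base word, in Sdccag8, a centrosomal protein gene (3.53 and 1.32), and in 4930407I10Rik (0.881 and 1.98).

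The difference between replicates was not the same for all kinds of coding-exon regions. Those with a CTCF match had higher scores in replicate 2 in 51 of 70 cases, with a median log2 difference of 0.18 (SD 0.34). Those with an NRF1 match had higher scores in replicate 1 in 20 of 21, with a median of -0.52 (SD 0.28). With neither match the median was -0.21 (SD 0.45). The same order was seen outside exons, with medians of 0.26 at CTCF matches, -0.19 at NRF1 matches and -0.15 at neither in introns. By CpG quartile, lowest to highest, the medians in coding-exon regions were 0.14 (37 regions), -0.03 (95), -0.29 (138) and -0.20 (525). CTCF matches had positive medians in each of the 4 quartiles, from 0.08 to 0.32.

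**Figure D3:**
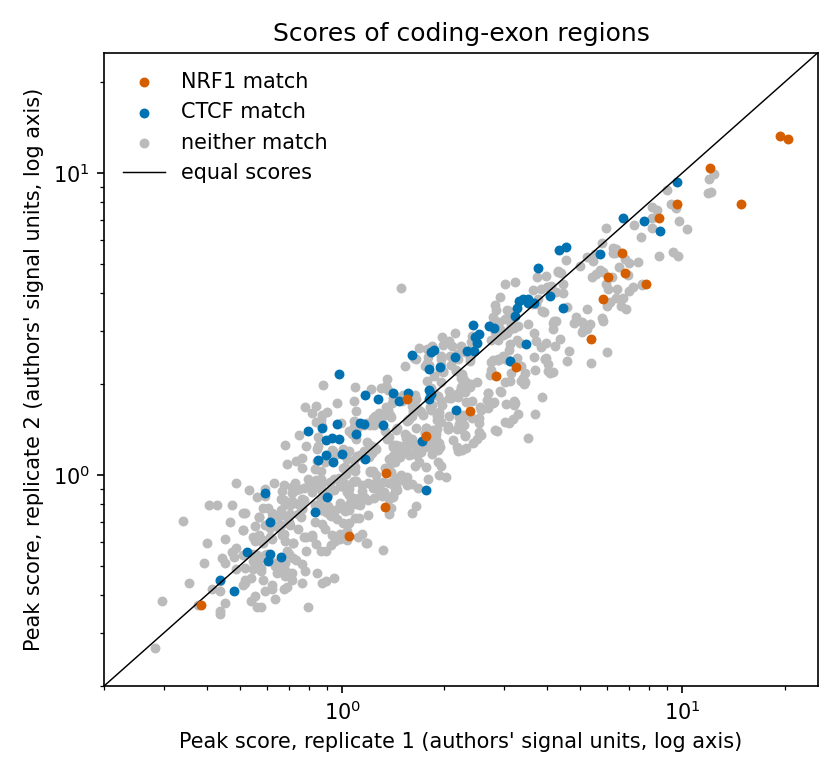
Peak score of each of the 795 coding-exon regions in replicate 1 (x axis) and replicate 2 (y axis), in the submitters' signal units on log axes. Points are regions, coloured by an NRF1 or CTCF match in the central 150 bp, and the line marks equal scores. NRF1 regions (21) reach the highest scores and lie mostly below the line; most CTCF regions (51 of 70) lie above it.

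The strongest coding-exon regions were few. The 12 highest with unique sequence scored from 9.05 to 20.5 in replicate 1 and from 7.67 to 13.2 in replicate 2, and all 12 had a footprint in both replicates. Their median distance to a TSS was 1600 bp, against 4280 bp over all 795 regions, and 5 held an NRF1 match, against 21 of all 795. In 5 of the 12 genes no promoter was accessible. Among the 100 highest with unique sequence the median distance to a TSS was 3150.5 bp, and 11 held an NRF1 match. Of these 100, 25 were in genes with no accessible promoter, against 222 of all 795.

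The highest was in the first coding exon of Angptl6, a secreted angiopoietin-like protein (chr9:20878201-20878540), with 20.5 in replicate 1 and 12.9 in replicate 2. The last coding exon of Lgals7, which encodes the epithelial lectin galectin-7 (chr7:28866041-28866240), had 19.3 and 13.2. Gdf15, a stress-induced cytokine of the TGF-beta superfamily (chr8:70629781-70630060), followed with 14.9 and 7.92 in its last coding exon. These 3 genes and Ccdc194 (12.1 and 10.4) had no accessible promoter of their own, and all 4 regions held an NRF1 match.

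The next regions held no NRF1 match except that of Sptbn4. Klf1, the erythroid Krueppel-like factor, had 12.4 and 9.89 in coding exon 2 (chr8:84903081-84903320) with no accessible promoter. A pair of zinc finger genes had regions whole in coding sequence, Zfp771 with 12.1 and 8.66 (chr7:127254021-127254300) and Zfp219 with 11.9 and 8.56 (chr14:52008881-52009120). Abi3, an adaptor of actin regulation, had 11.96 and 9.58 around coding exon 4 (chr11:95834081-95834580), but only 20.8% of that region was coding.

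The last of these 12 were in exons deep inside genes or in a gene of 1 coding exon. Epg5, which acts in the fusion of autophagosomes with lysosomes, had 9.67 and 9.33 in coding exon 32 of 44 (chr18:78014721-78014920). Padi4, an enzyme that converts arginine of histones to citrulline, had 9.05 and 8.77 in exon 12 of 16 (chr4:140750501-140750740). Sptbn4, a spectrin of axon initial segments, had 9.67 and 7.91 in exon 32 of 35 (chr7:27361461-27361700). Rimbp3, known for its role in spermatid shaping, had 9.58 and 7.67 in its single coding exon (chr16:17210081-17210300).

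Footprints lay in most coding-exon regions, slightly less often than in other classes. A footprint was present in both replicates in 724 of 795 regions (91.1%, 88.9 to 92.9%), against 94.1% of intronic and 95.0% of intergenic regions and 94.4% of all distal regions. In 18 coding-exon regions neither replicate had one. The mean number per region was 3.31 in replicate 1 and 3.35 in replicate 2, against 3.15 and 3.25 in introns. Per length the order was the other way: footprints took 16.3 and 18.02 of every 100 bp in coding-exon regions, whose median width was 220 bp, against 17.3 and 19.4 in intronic ones, at 200 bp.

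The lower share was in the weaker regions. In the lowest score quartile 78.9% of coding-exon regions (72.9 to 83.8%) had a footprint in both replicates, against 86.8% of intronic ones (85.6 to 87.8%). In the highest quartile the shares were 99.5% and 99.7%. By rank, footprints were present in 93.5% of regions in internal and 92.2% in last coding exons, against 78.0% in first and 72.9% in single coding exons.

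Within the coding-exon regions, footprints covered coding bases more than the flanking bases. Footprints of both replicates covered 11.2% of the coding bases and 6.37% of the other bases of these regions. At the exon ends inside the regions, 50 of 399 acceptor sides (12.5%) and 23 of 318 donor sides (7.23%) were under such a footprint. The coding bases include the region centre by construction, so distance to the centre moves with this difference and its part was not tested.

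**Figure D4:**
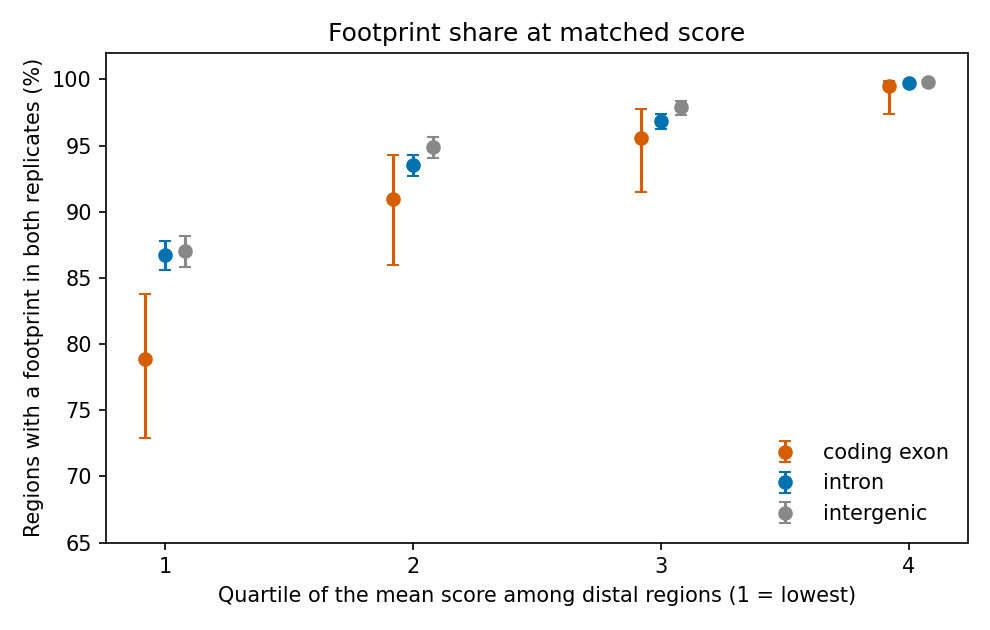
Share of regions with a footprint in both replicates, by quartile of the mean score over all distal regions, for coding-exon, intronic and intergenic regions. Points are shares and bars 95% Wilson intervals; the y axis starts at 65%. Coding-exon regions are lowest in quartile 1 (78.9%) and reach 99.5% in quartile 4.

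Consensus matches on both strands in the central 150 bp separated coding-exon regions from coding sequence without a peak. CTCF was matched in 70 of 795 regions (8.81%, 7.03 to 11.0%), against 12.2% of intronic, 14.8% of intergenic and 13.3% of all distal regions. In 87009 coding windows of the same length that overlapped no peak, 62 (0.071%) held a CTCF match. NRF1 was matched in 21 coding-exon regions (2.64%, 1.73 to 4.004%), against 0.268% of intronic, 0.441% of intergenic and 0.412% of all distal regions and 0.115% of coding windows without a peak.

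The other words differed in both directions. The SP/KLF word GGGCGG was in 13.96% of coding-exon and 8.37% of intronic regions, the ETS word CCGGAAG in 4.53% and 2.09%, and the E-box CAGCTG or CACCTG in 44.5% and 35.7%. The T cell factor RUNX (TGTGGTT) was matched less, in 4.03% of coding-exon and 7.59% of intronic regions, as was AP-1 (TGANTCA), in 1.51% and 4.85%. TCF/LEF (CTTTGA) was in 8.30% and 10.6%, the GATA-factor word AGATAA in 2.64% and 4.76%, NFY (CCAAT) in 10.7% and 13.5%, YY1 (AAGATGG) in 3.27% and 2.61%, IRF in 0.755% and 1.43%, and REST in 0.377% and 0.275%. Against coding windows without a peak the direction changed for RUNX and YY1. RUNX was matched in 2.47% of those windows, below coding-exon regions, and YY1 in 4.27%, above them. SP/KLF (4.06%), ETS (2.14%), the E-box (24.4%) and REST (0.008%) were also below coding-exon regions there. AP-1 (3.29%), TCF/LEF (12.1%), GATA (5.16%), NFY (19.8%) and IRF (1.31%) were above them.

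CpG content moved with several of these words. Of the coding-exon regions, 66.0% fell in the highest CpG quartile of distal regions, against 19.5% of intronic ones. Within that quartile SP/KLF was matched in 18.1% of coding-exon and 19.6% of intronic regions, and NRF1 in 4.0% (2.63 to 6.04%) and 1.26% (0.915 to 1.75%). CTCF was matched in 6.86% and 8.78% there, and in 24.3% (13.4 to 40.1%, 37 regions) and 14.02% in the lowest quartile. In the highest quartile the E-box was matched in 44.0% (39.8 to 48.3%) of coding-exon and 32.0% (30.3 to 33.8%) of intronic regions. ETS was matched there in 5.14% (3.56 to 7.38%) and 3.93% (3.28 to 4.71%). So the higher SP/KLF share of coding-exon regions was absent in the quartile that held most of them. The NRF1 and E-box shares remained higher there, and the intervals of the ETS shares overlapped.

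**Figure D5:**
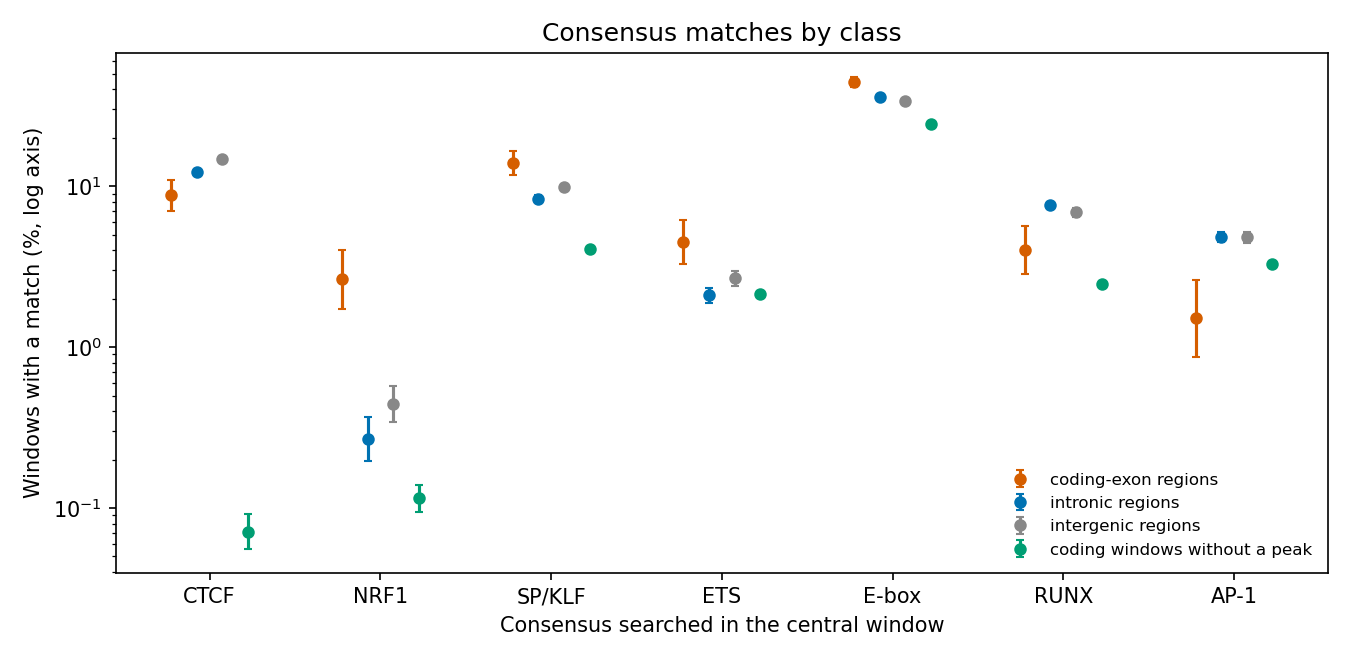
Share of central 150 bp windows with a match to each of 7 consensus sequences, in coding-exon regions, intronic regions, intergenic regions and coding windows without a peak, on a log axis. Points are shares and bars 95% Wilson intervals. CTCF and NRF1 show the widest gap between coding-exon regions (8.81% and 2.64%) and coding windows without a peak (0.071% and 0.115%).

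About 1 CTCF consensus in 3 in distal coding sequence was accessible. In the longest coding transcript of each gene, 187 matches lay over 1000 bp from every TSS; 59 (31.6%) were in coding-exon regions, 4 in other shared regions, 23 in a peak of 1 replicate or of the looser lists, and 101 (54.0%) in no peak. Footprints of both replicates lay on 57 of the 59, and on 0 of the 101. The core ran opposite to the gene in 35 of 59 (59.3%), against 62 of 101 (61.4%) in no peak, so orientation was alike in both. The match began at codon positions 1, 2 and 3 in 11, 23 and 25 of the 59, and in 35, 33 and 33 of the 101. Position 1 was thus less frequent among the matches in coding-exon regions, on small counts. Last coding exons held 17 of the 59 (28.8%) and 12 of the 101 (11.9%).

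The CTCF regions spanned a wide range of scores, with medians above those of the regions without a match. Their scores ranged from 0.437 to 9.67 in replicate 1 and from 0.413 to 9.33 in replicate 2, with medians of 1.80 and 1.89, against 1.48 and 1.32 in coding-exon regions without a match. The highest after Epg5 was in Zscan10, a zinc finger factor known from embryonic stem cells, with 8.61 and 6.43. Pgls, an enzyme of the pentose phosphate pathway, had 7.73 and 6.96, Synpo2l, an actin-associated muscle protein, had 6.68 and 7.09, Rasip1, a Ras-interacting protein of endothelial cells, had 5.73 and 5.38, and Trmu, which modifies mitochondrial tRNA, had 4.55 and 5.68. In all 5 printed CTCF sites every base of the match was under a footprint of both replicates.

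NRF1 matches were accessible less often than CTCF matches, but at higher scores. Of 196 matches in distal coding sequence, 27 (13.8%) lay in coding-exon regions and 152 (77.6%) in no peak. Footprints of both replicates lay on 21 of the 27 and on 2 of the 152. The 21 regions with a central match had medians of 5.86 in replicate 1 and 3.82 in replicate 2, against 1.47 and 1.35 without, and 12 of the 21 (57.1%) were above the 90th percentile of distal regions, against 86 of 774 (11.1%). Scores of intergenic regions with a match were similar, with medians of 5.90 and 4.23, and those of introns were 2.17 and 1.80.

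The reading frame of NRF1 matches did not set the accessible ones apart. The match began at codon position 3 in 17 of 27 (62.96%) in coding-exon regions and in 109 of 152 (71.7%) in no peak. Last coding exons held 12 of the 27 (44.4%) and 45 of the 152 (29.6%). Of the 21 genes with such a region, 9 had an accessible promoter. REST, a repressor of neuronal genes, was matched in 3 coding-exon regions, each with a footprint of both replicates over the match.

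The 795 regions lay in 728 genes, which is 3.80% of the 19135 protein-coding genes with distal coding sequence. Of these genes, 669 had 1 region, 53 had 2 and 6 had 3 or more. Many of the regions of 1 gene differed widely in score, as the 6 genes show.

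Ccdc162 had 4 regions in 47 coding exons, at exon 3 (3.84 and 4.12 in replicates 1 and 2), exon 29 (3.88 and 1.81), exon 18 (2.82 and 1.40) and exon 2 (0.696 and 0.699). Abi3 had 4 that lay close together over chr11:95832781-95834580, from 11.96 and 9.58 at exon 4 to 1.04 and 0.875 at exon 8. Sptbn4 had the region at exon 32 and weaker ones at exons 13 (1.21 and 1.46) and 16 (0.993 and 1.49). Apart from the Abi3 cluster and the pair at exons 2 and 3 of Ccdc162, the regions of these 3 genes did not lie close to each other.

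In Srcin1 and Epg5 the highest region stood well above the rest in both replicates, and in Syne1 the scores were closer. Srcin1, an adaptor that restrains Src kinase, had 5.98 and 6.56 at exon 12, 1.71 and 1.19 at exon 11 and 0.704 and 0.681 at exon 8. Epg5 had 3.68 and 1.59 at exon 36 and 1.80 and 2.25 at exon 23, the last also with a CTCF match, beside the region at exon 32. Syne1, which encodes the nuclear envelope protein nesprin-1 in 145 coding exons, had 3.44 and 2.01 at exon 88, 1.87 and 1.87 at exon 42 and 1.08 and 1.44 at exon 76.

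Of 3 lists of T cell genes, 2 held a region in a larger share of their genes than all genes did, on few genes each. Of 33 T lineage transcription factor genes with distal coding sequence, 4 (12.1%) held 5 regions, or 106 per Mb, against 3.80% of all genes and 31.7 per Mb. Of 29 genes of the T cell receptor complex and its signalling, 1 did (3.45%, 27.1 per Mb), and of 25 Notch and thymocyte genes, 2 did (8%, 56.8 per Mb). The highest was in coding exon 24 of 33 of Notch3, a receptor that acts in early thymocytes, with 4.54 in replicate 1 and 5.17 in replicate 2 (chr17:32143261-32143480).

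The transcription factor regions were of middle to low score. Nfatc3, a calcium-dependent factor of T cell activation, had 2.21 and 1.90 at exon 8 of 10, and Bach2, a repressor that restrains effector differentiation, had 1.66 and 1.66 in exon 2 of 4. Zbtb7b, the factor ThPOK of the CD4 lineage, had 1.68 and 1.10 in its last exon, where 80.5% of the words were unique. Tcf7, which encodes TCF-1, had 0.674 and 0.492 at exon 7 of 9 and 0.674 and 0.419 at exon 3, both near the low end of distal regions. Among the receptors, Cd8b1, the CD8 beta chain, had 1.65 and 0.790 around exon 2, in a wide region (chr6:71325801-71326840), and Notch2 had 0.630 and 0.942 at exon 7 of 34.

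Some gene families held a region in a larger share of their genes than all genes did, while some large families were nearly empty. Collagens held a region in 8 of 45 genes (17.8%) and kinesins, motors along microtubules, in 6 of 39 (15.4%), against 3.80% of all genes. Per length the difference was smaller, with 51.3 regions per Mb of distal coding sequence in collagens and 54.3 in kinesins, against 31.7 over all genes. Dynein heavy chains held one in 4 of 15 genes (26.7%), but at 22.7 per Mb, below the value of all genes.

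C2H2 zinc finger genes, whose long last exons encode finger arrays, were counted by the symbols Zfp, Zscan, Zkscan and Zbtb. Klf1 and the Sp genes were thus left out. The counted genes had fewer regions per length than all genes. They held 14 regions in 12 of 455 genes (2.64%), or 18.6 per Mb. Protocadherins, which also have long exons, held 1 in 68 genes (8.82 per Mb), in Pcdh15. Olfactory receptors held 1 in 273 genes (9.29 per Mb), in Olfr9, and vomeronasal receptors 0 in 171 (302 kb of distal coding sequence). No region lay in the deubiquitinases of the USP family (55 genes, 128 kb of distal coding sequence) or the Ankrd genes (45, 71.0 kb). The DOCK exchange factors (11, 59.3 kb) and the Hox genes with distal coding sequence (31, 11.0 kb) also held none. At the 31.7 regions per Mb of all genes, only few would fall in such lengths. For the Ankrd, DOCK and Hox genes a count of 0 says little. The totals of protocadherins (113 kb), olfactory receptors (108 kb) and USP genes were also short, so their low counts are of limited weight.

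The densities of the other families lay on both sides of that of all genes. Solute carriers held 14 regions in 367 genes (3.81%, 31.2 per Mb) and myosins 6 in 5 of 39 genes (12.8%, 34.0 per Mb). Keratins, intermediate filament proteins of epithelia, held 5 in 51 genes, or 114 per Mb of a short total. Chromatin regulators held 4 in 75 genes (16.8 per Mb), TRIM genes 3 in 67 (37.7 per Mb), semaphorins and plexins 3 in 29 (40.7 per Mb), cadherins 2 in 30 (16.8 per Mb), and KLHL and ABC transporter genes 1 each (19.5 and 5.92 per Mb).

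Histone genes with distal coding sequence were 5, of which Hist1h1d (9.71 in replicate 1 and 5.31 in replicate 2) and Hist1h2be (5.39 and 2.83) held a region. In these the unique words made up 87.4% and 66.8%, so that reads of other histone genes could be included. The group holds so little distal coding sequence, 1.13 kb, that its density says little.

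Values are given here for the 3 highest regions of each family, which do not describe the family as a whole. Among the counted zinc finger genes they were in Zfp771, Zfp219 and Zscan10, all above 6 in both replicates. Trim11 had 5.59 and 4.61 and Trim46, a protein of the axon initial segment, had 4.41 and 4.67, against 1.08 and 1.51 in Trim67. Myo15b had 4.27 and 4.02 in its first coding exon, Myo1h 2.55 and 1.68, and Myh14, a nonmuscle myosin heavy chain, 1.64 and 1.79.

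Transporter, motor and collagen genes had lower values. Slc6a19, a neutral amino acid transporter of gut and kidney, had 4.22 and 2.67, Slc47a2 had 3.08 and 2.40 and Slc4a5 had 2.72 and 2.14. Kif26b had 3.28 and 3.12, Kif19a 2.50 and 2.74 and Kif27 2.06 and 2.78; Dnah1, of ciliary dynein, had 2.42 and 3.14, Dnah17 1.56 and 0.985 and Dnah10 0.844 and 1.11. Col15a1 had 3.02 and 2.02, Col4a2, of basement membranes, 1.10 and 1.36 and Col6a6 1.32 and 0.565. The Kif19a, Dnah1 and Col4a2 regions held a CTCF match.

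The remaining families ranged as widely. Kmt2a, a histone H3 lysine methyltransferase, had 2.82 and 2.98, while the chromatin remodellers Chd2 and Chd4 had 1.16 and 1.14 and 1.21 and 1.03. Krt88 had 2.14 and 2.95, Krt90 1.95 and 1.76 and Krt81 0.511 and 0.748, each in the last coding exon.

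Grouping by symbol after the values were seen added small families with 3 or more genes. The Padi genes, peptidylarginine deiminases, held a region in 3 of 5 genes (Padi1, Padi2 and Padi4) and Smad genes in 3 of 8 (Smad1, Smad3 and Smad9). The Kcnh potassium channels were also at 3 of 8, and symbols with the root Sox at 4 of 17. Symbols with the root Itgb were at 3 of 12 (Itgb4, Itgb5 and Itgb7), and those with Sp at 4 of 12 (Sp2, Sp6, Sp7 and Sp9). A root is the letters before the first digit, so its total can include genes outside the family of that name. These groups were picked for their counts and are a description only.

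Genes with a coding-exon region had an accessible promoter more often than all genes, and less often than genes with an intronic region. A promoter was accessible in 521 of 728 genes (71.6%, 68.2 to 74.7%), against 80.0% of 5592 genes with a distal intronic region, 63.2% of genes with distal coding sequence and 58.9% of all protein-coding genes. A distal intronic region was also present in 370 of the 728 (50.8%), against 28.9% of genes with distal coding sequence.

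Coding-exon regions were mostly weaker than the promoter of their gene. Where the promoter was accessible, its score was 3.04 times that of the coding-exon region in the median of replicate 1 and 2.79 times in replicate 2. In 97 of 573 regions (16.9%) the coding-exon region exceeded the promoter in both replicates. The 222 regions in genes without an accessible promoter had median scores of 1.34 and 1.24, against 1.61 and 1.42 in the 573 regions of genes with one.

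The distance of 1000 bp to a TSS bounds this set. Just inside it lay regions in Nkx2-4, a homeobox gene (1005 bp, with 1.02 and 0.638 in replicates 1 and 2), Phlpp1, an Akt phosphatase (1009 bp, 0.830 and 0.930), and Tmem18 (1015 bp, 0.548 and 0.547). Just outside lay regions in Trim8 (999 bp, 10.5 and 7.24), Pim3, a serine/threonine kinase (995 bp, 2.17 and 1.53), and Nfkbiz, an atypical IkappaB protein (990 bp, 0.800 and 0.790). Within 1000 bp of a TSS, 1645 further shared regions had a coding centre, with median scores of 2.44 and 1.73.

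Before sharing between replicates, the same rule gave 1076 distal coding peaks in replicate 1 and 1028 in replicate 2. Of these, 76.7% (74.0 to 79.1%) in replicate 1 and 79.2% (76.6 to 81.6%) in replicate 2 overlapped a peak of the other, against 79.2% and 77.1% of intronic peaks. Those found in 1 replicate alone were weak, with median scores of 0.630 and 0.599.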

How the data were processed

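DNase I sequencing gave interval files for 2 samples. The authors deposited, per the file headers and labels, peak lists on mm10 with a signal score per peak, a strict and a looser list per sample, and footprint intervals whose deposited score is the constant 0.01, used here as positions only. No aligner or peak caller is named (not given in the sources used here), and the depth is unknown. Reads of this cross were placed on mm10, so alleles of CAST/EiJ that differ from it could be placed less well; this was not tested. The false discovery rate tracks were not used here.

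Strict peaks on the 19 autosomes, X and Y were joined within a list, called shared at an overlap of 1 bp or more, and merged. Classes and coding exon ranks came from GENCODE M21; the rank is that in the longest coding transcript that holds the centre. Densities divide by the distal bases of the class. Promoters are regions within 1000 bp of a TSS of the gene. Consensus words were searched on both strands of GRCm38.p6, from RefSeq, in the central 150 bp. Shares carry 95% Wilson intervals, which cover counting error only, and regions are not independent replicates.

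No test was made: all results are descriptions of 1 group. The members, gene lists and families were chosen with earlier results of these data known. Results for 1 marker list and 1 gene family are not reported here. Named were the 12 highest unique and the 3 highest members, genes with 3 or more, members in the 3 T cell lists, the 3 highest of each family with 3 or more genes, the 6 highest with a CTCF match, the 3 lowest, the 3 on either side of the TSS distance and the 3 with the largest replicate difference. NRF1 sites, the replicate difference by match and the tally of matches in all coding sequence were added after the values were seen. The steps were tested on simulated data, where 13 of 13 known answers were returned. The tools were numba 0.67.0, scipy 1.17.1, matplotlib 3.10.9, pandas 2.3.3 and numpy 2.4.6 under Python 3.11.15.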

Additional observations from a re-analysis of the deposited data

How the results depend on the processing

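The density ratio of coding exons to introns, 2.22, was 1.94 when at least 50% of the region bases had to be coding and 2.12 to 2.36 otherwise. The median score over that of introns, 1.03, was 1.09 with 50% reciprocal overlap, 1.07 over 2500 bp from a TSS, 0.988 with the looser lists and 0.960 to 0.986 with 1 replicate left out, so its direction was not stable. The share in last coding exons, 29.1%, was 25.9% over 500 bp from a TSS and 24.4% with basic transcripts. The footprint share, 91.1%, was 94.3% with reciprocal overlap, 86.7% over 500 bp and 93.7% over 2500 bp. It was 81.6% with the looser lists and 95.2% with the 50000 highest peaks. With 1 replicate left out it was 84.6 to 87.3%. There a footprint was counted in the remaining replicate alone, over peaks that need not be shared. The CTCF share, 8.81%, was 6.94% with the looser lists and 6.88 to 8.27% with 1 replicate left out. The promoter share, 71.6%, was 68.2% with reciprocal overlap, 76.0% with the looser lists and 74.4 to 75.4% with 1 replicate left out. It was 77.2% over 500 bp and 81.3% with a promoter window of 2500 bp. In both of these settings a coding-exon region near a TSS of its gene could itself count as the promoter. That alone can raise the share. Genes counted as C2H2 zinc finger genes with a region were 12, and 19 with the looser lists. The number of regions ranged from 538 over 2500 bp to 1167 with the looser lists. Beyond the stated differences in what was counted, the causes of these changes were not tested.

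No paired analysis was possible because both replicates belong to 1 group. The precision is limited by 2 replicates and an unknown depth, and small families rest on few regions.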
